A study of Caenorhabditis elegans with 8 samples.

Results

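Caenorhabditis elegans L1 larvae that lack the heterochromatin anchor CEC-4 were compared with wild-type larvae, both with normal lamin. The comparison took the libraries a and b of the cec-4 mutant and the libraries a and b of wild-type, 4 of the 8 libraries of total RNA in the study. It covered every gene that passed a filter on low counts, which was 14355 of the 20392 genes in the deposited count table. The wild-type was the N2 Bristol strain, and the mutant was the strain GW828 with the allele ok3124 of cec-4 on chromosome IV. The remaining libraries came from a strain with the integrated transgene ygIs, in which the baf-1 promoter drives lamin Y59C fused to GFP together with an unc-119(+) marker in an unc-119(ed-3) background, and from the strain that carries this transgene and the cec-4 allele, called the double mutant here. All larvae hatched for 16 h without food in M9 buffer, fed for 2.5 h on OP50 bacteria and passed a sort that kept larvae with no green balancer. Each genotype was 1 strain with 2 libraries. Separate cultures for libraries a and b are not stated, so the p-values measure only the spread between these libraries, which may be technical. Any other variant that a cec-4 strain carries with the deletion cannot be told apart from the deletion itself.

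CEC-4 is a chromodomain protein of the nuclear periphery that binds histone H3 methylated at lysine 9 (H3K9), a mark of silent chromatin. The enzymes MET-2 and SET-25 place this mark, which in C. elegans is dense on the outer parts of the autosomes, and CEC-4 holds chromatin that carries it at the nuclear envelope. In embryos CEC-4 is known for positioning heterochromatin and for helping to keep a forced cell fate. The comparison asks which transcripts differ in whole larvae when this anchor is missing.

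The wild-type libraries held 32023667 (a) and 57069281 (b) counts, and the cec-4 libraries 30997254 (a) and 36783388 (b). Levels below are in CPM, counts scaled to a common library size with TMM factors, and fold changes are log2 values of cec-4 over wild-type with their standard error (SE), unless another comparison is named. A gene was called changed where edgeR's quasi-likelihood F-test over all 8 libraries gave an adjusted p under 0.05. The tissue markers of a whole larva were present: all 36 body wall muscle genes, all 25 neuronal genes and all 16 intestinal genes on the lists were measured above the filter. Of 48 genes of adult yolk and sperm, 1 passed the filter, and the whole list summed to between 0.639 and 1.14 CPM in the 4 libraries. Libraries that stood apart were wild-type a, in which 26 genes were over 1.5-fold above and 6 below all 7 other libraries, and cec-4 b, with 4 above and 2 below. Wild-type b had 0 above and 1 below, and cec-4 a had 0 and 0.

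The loss of CEC-4 went with very few transcript differences. Of the 14355 genes, 3 were called changed (0.0209%): the chemoreceptor gene srw-85 and the ubiquitin pathway gene ufd-1 rose (0.0139%), and cec-4 itself fell (0.00697%). A further 697 genes had an unadjusted p under 0.05, which makes 700 in all (4.88% of the genes tested), 366 of them higher (2.55%) and 334 lower (2.33%). This count moved with single libraries: it was 367 without wild-type a (240 higher, 127 lower), 924 without wild-type b (356 higher, 568 lower), 1428 when cec-4 a was left out and 499 when cec-4 b was. The analysis with DESeq2 called 11 of 12226 genes (0.09%), 6 higher (0.0491%) and 5 lower (0.0409%), and the 3 genes called by edgeR were among them. The rest of the transcriptome lay close to wild-type. Among the 8152 genes whose mean over the 8 libraries reached 10 CPM, 90% of the log2 fold changes lay between -0.167 and 0.147. In this set 6 genes were over 1.5-fold higher and 8 over 1.5-fold lower, and 1 gene each way passed 2-fold, srw-85 upward and Y47D7A.13 downward. Over this set, the SD of the log2 difference between a cec-4 and a wild-type library was between 0.122 and 0.191 in the 4 possible pairs. It was 0.125 between the wild-type libraries and 0.156 between the cec-4 libraries, so the ranges between and within genotypes overlapped.

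**Figure D1:**
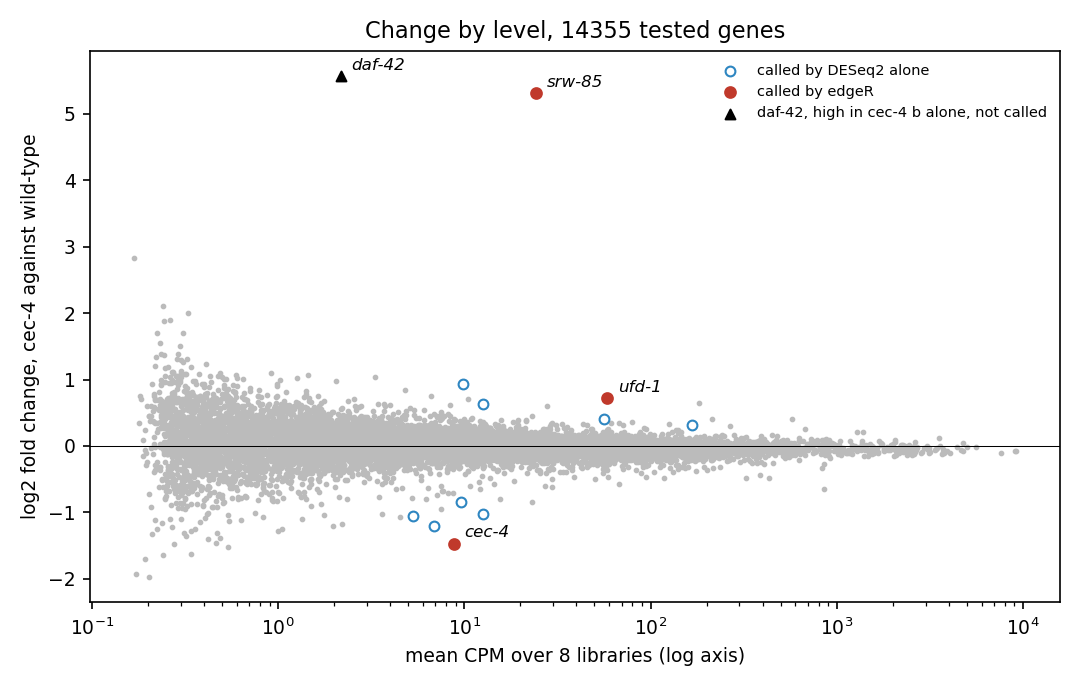
Log2 fold change of cec-4 against wild-type (vertical axis) by the mean CPM over 8 libraries (horizontal log axis) for the 14355 genes tested. Red points are the 3 genes called by edgeR, open blue circles those called by DESeq2 alone and the triangle is daf-42, which was high in cec-4 b alone; the grey cloud narrows as the level rises.

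The deleted gene checks the labels. cec-4 (WBGene00017990, IV:7575718-7577326 on the plus strand in WBcel235) had counts of 463 and 713 in wild-type and 154 and 182 in cec-4, or 14.5 and 12.7 against 5.04 and 4.76 CPM. It was low in both mutant libraries, and the groups did not overlap. The fall was 1.47 on the log2 scale (-1.47 ± 0.11, adjusted p = 0.00061), which left 36% of the wild-type level. In the strains with mutant lamin, the double mutant held 36.4% of the cec-4 level of lamin Y59C. Reads thus remained over the gene in every mutant library, and where in the gene they lie was not analysed here. The gene F32E10.5 overlaps cec-4 on the opposite strand, with 9.92 CPM in wild-type and 9.26 in cec-4 (-0.09 ± 0.09, adjusted p = 0.902). Whether the authors' counting used the strand is not given in the sources used here, and reads of this pair could have been shared. The adjacent chromodomain gene cec-5, 1180 bp away, had 149 and 148 CPM in wild-type and 144 and 144 in cec-4 (-0.04 ± 0.06, adjusted p = 0.932). Of the 20 tested genes nearest to cec-4, 13 had a positive log2 fold change, beside 51.9% of all tested genes, and none was called.

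Of the genes of the transgene, none was called in this comparison. lmn-1, the single lamin gene of the worm, had 442 and 453 CPM in wild-type and 429 and 473 in cec-4 (0.01 ± 0.07). baf-1, which encodes a chromatin-binding partner of lamin, changed by -0.04 ± 0.06 and the neuronal trafficking gene unc-119 by 0.02 ± 0.06, and the adjusted p of all 3 was at least 0.948.

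**Figure D2:**
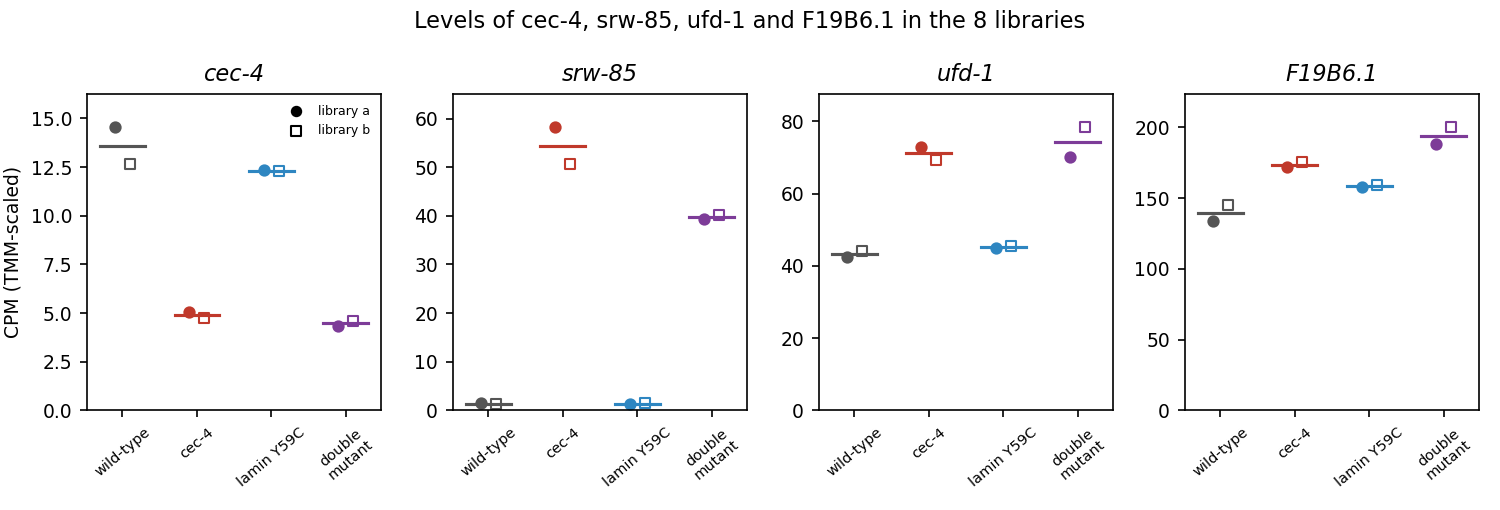
Levels of cec-4, srw-85, ufd-1 and F19B6.1 in CPM (vertical axes from 0) in each of the 8 libraries, with circles for library a, squares for library b and a line for the mean of a genotype. The libraries with the cec-4 allele lie apart from those without it in each panel, with cec-4 low and the other 3 genes high.

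srw-85 rose the most of the called genes. It belongs to class W of the serpentine receptors, a family of G protein-coupled receptors that is large in nematodes and includes chemosensory receptors, and no ligand is named here. The gene (WBGene00005832) lies at V:19429387-19431136 on the minus strand in WBcel235, on the outer right part of the chromosome. Its counts were 50 and 70 in wild-type and 1779 and 1933 in cec-4, which is 1.57 and 1.24 against 58.2 and 50.6 CPM. Both mutant libraries were far above both wild-type libraries. The mean level was 38.7-fold higher (5.31 ± 0.12, adjusted p = 8.55e-09). The transcript was thus detected in wild-type at a low level rather than absent. Per kilobase of exon, srw-85 ranked 4 among the srw genes in wild-type with 0.987 CPM per kb, and 1 in cec-4 with 38.2 CPM per kb.

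No other srw gene was called. The table held 107 srw genes, of which 36 had 0 counts in all 8 libraries and 20 passed the filter. The summed level of the others without srw-85 was 19.3 CPM in wild-type and 20.7 CPM in cec-4. srw-86, the member with the highest level per kilobase in wild-type, had 5.40 and 4.33 CPM in wild-type and 4.48 and 4.29 in cec-4 (-0.13 ± 0.15, adjusted p = 0.916). Apart from srw-85, srw-98 had the smallest p of the class, with 0.408 CPM in each wild-type library and 0.589 and 0.811 in cec-4 (0.79 ± 0.32, adjusted p = 0.897). srw-145 had 2.01 and 2.38 CPM in wild-type and 2.29 and 4.34 in cec-4, so the groups overlapped (0.60 ± 0.28). The median log2 fold change of the 20 tested members was 0.126, and without cec-4 b it was -0.211, over 24 members that then passed the filter.

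Genes around srw-85 were not called. On one side C25F9.11, 1311 bp away on the same strand, had 21.8 and 18.1 CPM in wild-type and 20.6 and 18.6 in cec-4 (-0.02 ± 0.11, adjusted p = 0.991). On the other side C25F9.2, 2613 bp away on the opposite strand, had 2.54 and 1.76 against 2.84 and 1.49 CPM (0.02 ± 0.29). Farther on, C25F9.15 had 0.377 and 0.390 CPM in wild-type and 0.654 and 0.733 in cec-4 (0.85 ± 0.32, adjusted p = 0.897), and C25F9.14 differed by 0.19 ± 0.09. Among the 20 tested genes nearest to srw-85, 10 to a side, none was called and the smallest adjusted p was 0.897. Of these 20 genes, 15 had a positive log2 fold change, beside 51.9% of all tested genes, and the median was 0.192. The unadjusted p was under 0.05 for 4 upward and 0 downward, beside 2.55% and 2.33% of all tested genes. Wider windows leaned less: of the nearest 50 and 100 tested genes, 30 and 61 were positive, with medians of 0.0554 and 0.0586. Positive values were also more frequent among all tested genes of low level, 60.1% at 1 to 3 CPM and 59.4% at 3 to 10 CPM. The smallest p was that of C25F9.10, with 3.11 and 2.82 CPM in wild-type and 4.09 and 3.95 in cec-4 (0.45 ± 0.14), followed by C25F9.5, with 8.32 and 7.97 against 9.88 and 11.6 CPM (0.41 ± 0.13); both were named after their values were seen. In the double mutant against lamin Y59C these differed by -0.11 ± 0.14 and -0.20 ± 0.14. Of the 20 genes, C25F9.6 alone had a positive log2 fold change in that comparison (0.01), beside 50.8% of all tested genes. There C25F9.11 differed by -0.56 ± 0.11 and C25F9.2 by -0.80 ± 0.32.

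ufd-1 also rose. UFD-1 works with NPL-4 as a cofactor of the ATPase CDC-48, which extracts ubiquitin-tagged proteins from membranes, complexes and chromatin for breakdown. The gene (WBGene00006733) lies at IV:12329408-12330890 on the minus strand in WBcel235, on the same chromosome as cec-4. Its counts were 1352 and 2489 in wild-type and 2232 and 2650 in cec-4. Scaled for depth, the levels were 42.4 and 44.2 CPM in wild-type and 72.99 and 69.3 in cec-4, and the groups lay well apart. The mean was 1.64-fold higher (0.71 ± 0.06, adjusted p = 0.00296). The call was lost without wild-type a (0.69, adjusted p = 0.0608), and over the 8 fits that each leave out 1 library the log2 fold change stayed between 0.68 and 0.75.

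No partner of ufd-1 was called. Of the 20 genes of the CDC-48 list, all tested, ufd-1 alone was called, 6 had a positive log2 fold change and the median was -0.0381. Without cec-4 b the median was 0.0166, with 11 positive. The direct partners npl-4.1 and npl-4.2 differed by 0.13 ± 0.20 and -0.10 ± 0.20 on the log2 scale. cdc-48.1 had 368 and 364 CPM in wild-type and 361 and 334 in cec-4 (-0.08 ± 0.07), and cdc-48.2 had 202 and 196 against 183 and 177 (-0.14 ± 0.07, adjusted p = 0.897). The adaptor gene ufd-3 had 90.3 and 93.0 CPM in wild-type and 86.3 and 86.5 in cec-4 (-0.09 ± 0.05). None of the 33 proteasome genes reached an unadjusted p under 0.05. Their median was -0.0627 with 3 positive members, and without cec-4 b it was -0.0140 with 10 positive members.

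Next to ufd-1, on the same strand and 86 bp away, lies F19B6.1. It had 134 and 145 CPM in wild-type and 172 and 176 in cec-4, without overlap. Its log2 fold change was 0.32 ± 0.06, and edgeR did not call it (adjusted p = 0.514), while DESeq2 did (adjusted p = 0.0476). DESeq2 on the wild-type and cec-4 libraries alone did not call it (adjusted p = 0.146). On the other side, 482 bp away and on the opposite strand, F19B6.3 had 0 and 0 counts in wild-type and 2 and 4 in cec-4, too few to be tested. In the strains with mutant lamin it had 0 and 1 counts with cec-4 present and 6 and 3 in the double mutant. The next tested gene on each side differed less. oac-58 had 0.785 and 0.852 CPM against 0.818 and 1.05 (0.19 ± 0.26). best-22 had 32.8 and 34.2 CPM against 33.2 and 34.7 (0.02 ± 0.08). oac-59 had 12.3 and 12.5 CPM in wild-type and 13.3 and 19.1 in cec-4, the high value being that of cec-4 b (0.39 ± 0.15, adjusted p = 0.897). oac-57 had means of 1.08 CPM in wild-type and 1.54 in cec-4 (0.56 ± 0.23, adjusted p = 0.897). With mutant lamin it differed by -0.05 ± 0.26. Of the 20 tested genes nearest to ufd-1, 15 had a positive log2 fold change, beside 51.9% of all tested genes. The unadjusted p was under 0.05 for 3 upward and 0 downward, beside 2.55% and 2.33% of all tested genes. Of the nearest 50 and 100 tested genes, 25 and 51 were positive.

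**Figure D3:**
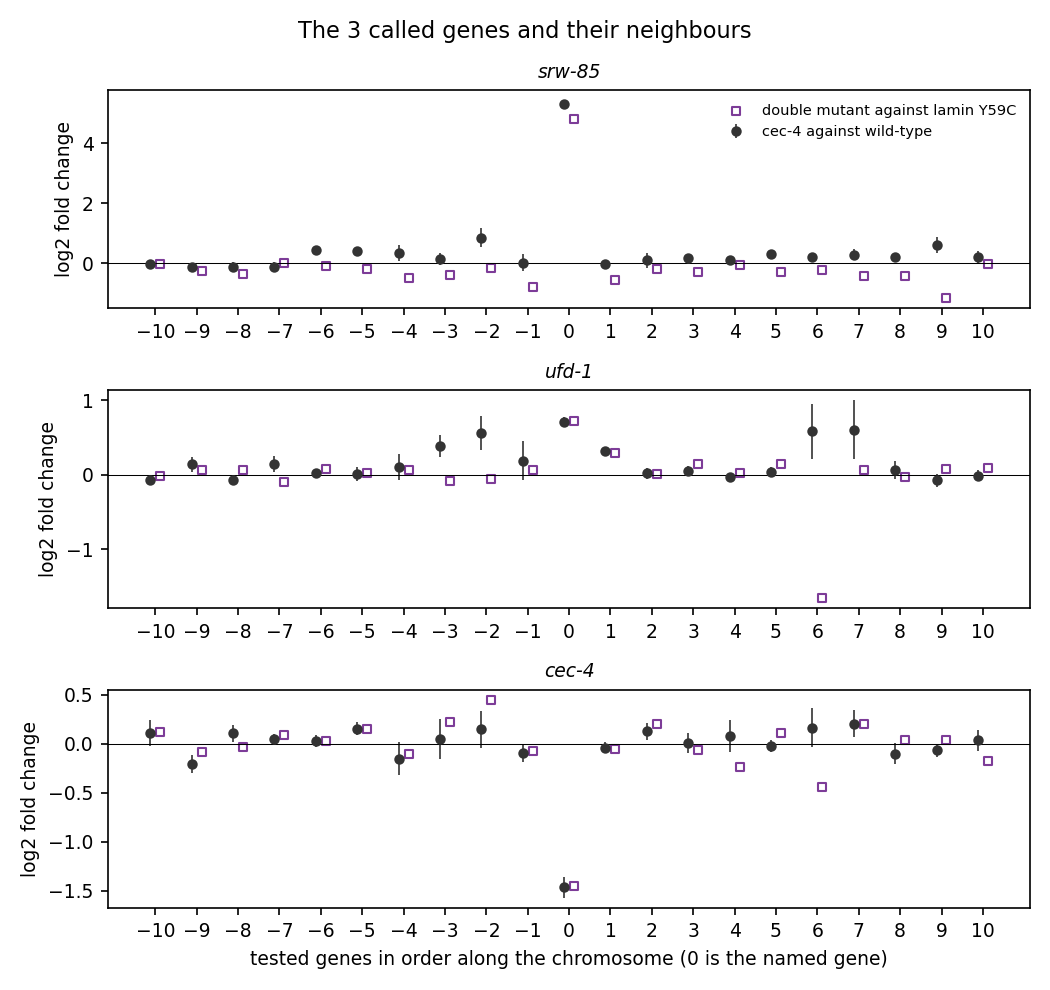
Log2 fold changes (vertical axes) of the 3 called genes and the 10 tested genes on each side of them in chromosome order (horizontal axis, 0 is the called gene). Filled circles with SE bars are cec-4 against wild-type and open squares are the double mutant against lamin Y59C. srw-85 and cec-4 stand far from their neighbours, and ufd-1 is the highest of its panel in both comparisons. F19B6.1 at position 1 beside ufd-1 is above 0 in both. Most neighbours of srw-85 lie above 0 in the first comparison and below 0 in the second.

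The 4 libraries with mutant lamin give a second measurement of the same allele that shares no library with the first. There srw-85 had 1.39 and 1.42 CPM in lamin Y59C and 39.3 and 40.3 in the double mutant, 28.3-fold higher (4.82 ± 0.12, adjusted p = 3.97e-08). ufd-1 had 44.9 and 45.4 CPM in lamin Y59C and 70.2 and 78.3 in the double mutant (0.72 ± 0.07, adjusted p = 0.00155). cec-4 fell from 12.3 and 12.3 CPM to 4.35 and 4.61 (-1.46 ± 0.11, adjusted p = 0.00037). All 3 genes moved the same way with either lamin, and for each the difference between the backgrounds was not called: -0.49 ± 0.20 for srw-85 (adjusted p = 0.471), 0.00 ± 0.09 for ufd-1 (adjusted p = 0.994) and 0.01 ± 0.16 for cec-4 (adjusted p = 0.9901). F19B6.1 had 158 and 159 CPM in lamin Y59C and 188 and 200 in the double mutant (0.29 ± 0.06). There too edgeR did not call it (adjusted p = 0.0695) and DESeq2 did (adjusted p = 0.0122).

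Over all genes the signs of the 2 comparisons differed about as often as they matched. Of all 14355 genes, 6996 had the same sign in both comparisons (48.7%). Of the 697 genes that had an unadjusted p under 0.05 in cec-4 against wild-type without being called, 320 had the same sign in the double mutant against lamin Y59C (45.9%). Across the genes of at least 10 CPM without the called ones, Pearson's r of the 2 sets of fold changes was -0.0979. Genes are not independent replicates, so this describes these libraries. The removal of CEC-4 from larvae with mutant lamin gave more calls, 97 (0.676%), of which 25 were higher (0.174%) and 72 lower (0.502%), and 236 (1.72%) with DESeq2. That count rests on single libraries, since it was 8 without lamin Y59C a and 6 without either double mutant library, and it was 28 with the library letter as a block. The difference between the backgrounds was called for 5 genes (0.0348%), all with a lower signed log2 fold change under mutant lamin than under normal lamin, and for 73 (0.471%) by DESeq2, 34 with a higher and 39 with a lower one.

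**Figure D4:**
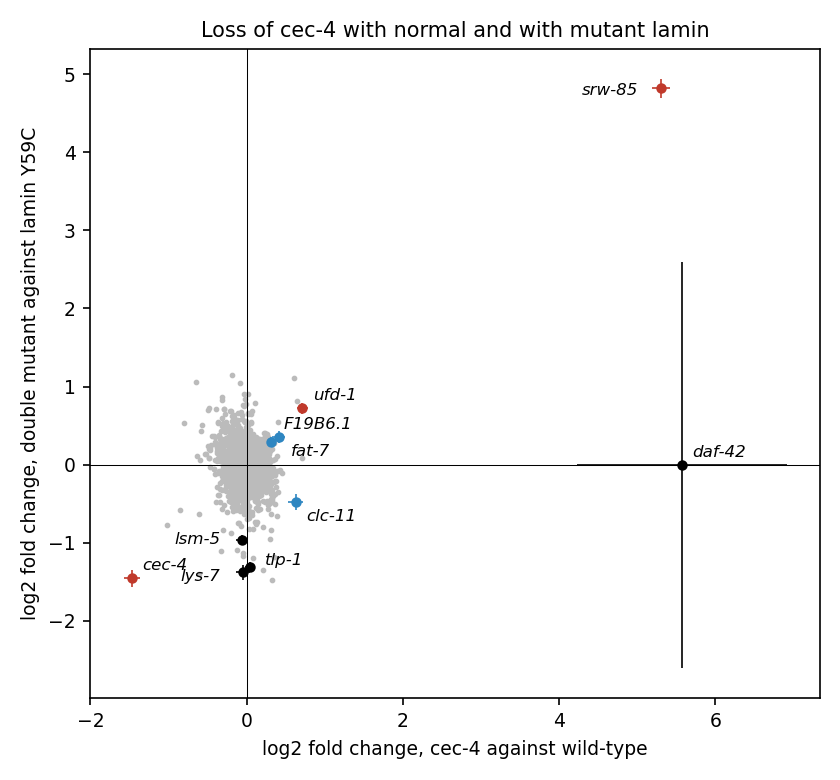
Log2 fold change of cec-4 against wild-type (horizontal axis) and of the double mutant against lamin Y59C (vertical axis) for genes of at least 10 CPM (grey), with named genes and their SE bars (red called by edgeR between cec-4 and wild-type, blue by DESeq2 alone, black by neither). srw-85 and ufd-1 lie above 0 on both axes and cec-4 below 0 on both, while tlp-1, lys-7 and lsm-5 lie near 0 on the horizontal axis and below 0 on the vertical one; daf-42, under 10 CPM on average, was added for its single high library.

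Beyond these genes, DESeq2 alone called 4 more that were higher in cec-4. clc-11, a claudin-like gene, had 10.01 and 11.2 CPM in wild-type and 16.5 and 16.4 in cec-4 (edgeR log2 fold change 0.63 ± 0.10, adjusted p = 0.212, DESeq2 adjusted p = 0.0182). The direction turned with mutant lamin, from 14.5 and 12.6 CPM to 9.50 and 9.95 in the double mutant (-0.48 ± 0.10). Y58A7A.3 had 7.28 and 5.00 CPM in wild-type and 11.8 and 11.2 in cec-4 (0.93 ± 0.15, DESeq2 adjusted p = 0.000464). Only the wild-type libraries were low for Y58A7A.3, since lamin Y59C had 11.5 and 11.8 CPM and the double mutant 9.87 and 10.3. fat-7, which encodes a delta-9 fatty acid desaturase, had 39.7 and 39.2 CPM in wild-type and 54.4 and 50.4 in cec-4 (0.41 ± 0.08, DESeq2 adjusted p = 0.0499, or 0.0525 on the 4 libraries alone). In the mutant lamin background fat-7 had 54.1 and 62.9 CPM with CEC-4 and 77.7 and 71.6 without it. The log2 fold change there was 0.35 (edgeR adjusted p = 0.086, DESeq2 adjusted p = 0.0283). The remaining gene of this set was F19B6.1, described above.

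The 4 genes besides cec-4 that DESeq2 called lower share 1 feature of their values: wild-type a was the highest of the 8 libraries for each. The cuticle collagen gene col-77 had 15.0 and 10.8 CPM in wild-type and 4.84 and 6.17 in cec-4 (-1.21 ± 0.21, DESeq2 adjusted p = 0.000109), and the collagen gene col-65 had 12.1 and 6.62 against 4.81 and 4.08 (-1.05 ± 0.25, DESeq2 adjusted p = 0.0476). Y47D7A.13 had 25.1 and 17.3 CPM in wild-type and 10.6 and 10.1 in cec-4 (-1.03 ± 0.19, DESeq2 adjusted p = 0.000109). C42D4.3 had 18.02 and 11.5 against 7.78 and 8.35 CPM (-0.85 ± 0.19, DESeq2 adjusted p = 0.0251). The groups did not overlap for any of these genes, and edgeR called none of them. The part of wild-type a in these values was not tested beyond leaving it out. Without it the edgeR log2 fold change was -0.58 for col-65, -0.51 for C42D4.3, -0.75 for Y47D7A.13 and -0.96 for col-77. All 4 were also lower in the double mutant than in lamin Y59C. The edgeR values there were -1.08 ± 0.21 for C42D4.3, -0.77 ± 0.21 for Y47D7A.13, -0.74 ± 0.29 for col-65 and -0.61 ± 0.24 for col-77. In that comparison edgeR called none of them, and DESeq2 called C42D4.3 (adjusted p = 0.0001) and Y47D7A.13 (adjusted p = 0.0092).

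Groups without overlap were frequent: 4927 genes (34.3%) had both cec-4 libraries on 1 side of both wild-type libraries. Among genes of at least 5 CPM in either genotype and without overlap, the 12 of smallest p each way included all 11 genes above and, with values that passed neither test, the following. flp-3, a neuropeptide gene, had 51.1 and 53.8 CPM in wild-type and 73.1 and 62.0 in cec-4 (0.36 ± 0.08). C31C9.7 had 13.03 and 12.8 against 8.99 and 8.79 CPM (-0.54 ± 0.08, adjusted p = 0.212). aspm-1, which encodes a spindle pole protein, had 45.7 and 45.2 against 38.4 and 38.02 CPM (-0.25 ± 0.06). pfas-1, an enzyme gene of purine synthesis, had 42.2 and 44.6 against 37.2 and 35.2 CPM (-0.26 ± 0.07). irg-5, an infection response gene, had 16.2 and 15.3 against 10.3 and 10.9 CPM (-0.57 ± 0.14). The others were C09E7.8, T22F7.1, F10D2.10 and F42G4.5 on the higher side, between 0.33 and 0.75 on the log2 scale, and F10D11.6, T01G9.2 and hsp-16.41 on the lower side, between -0.85 and -0.25. Among them, hsp-16.41 was called by DESeq2 on the wild-type and cec-4 libraries alone.

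One gene of this set, daf-42, named for the dauer formation mutants, was high in a single library. It had 7 and 8 counts in wild-type, 12 in cec-4 a and 602 in cec-4 b, and 6 to 8 in each library with mutant lamin. The log2 fold change of 5.57 ± 1.34 therefore rests on cec-4 b, and it was not called (adjusted p = 0.897). cec-4 b at 15.8 CPM was also far above cec-4 a at 0.392 CPM.

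The other genes that act with CEC-4 gave no call. Of the 22 genes for H3K9 methylation, its erasure and its readers, all tested, cec-4 alone was called, and the median log2 fold change was -0.00286 beside 0.00514 over all tested genes. met-2, the enzyme gene for the lower methylation states, had 73.7 and 70.0 CPM in wild-type and 64.1 and 66.2 in cec-4 (-0.14 ± 0.06, adjusted p = 0.897). set-25, the enzyme gene for trimethylation, had 19.99 and 18.6 against 17.7 and 19.05 CPM (-0.07 ± 0.11). lin-65, the gene of a MET-2 cofactor, had 43.7 and 44.4 against 43.3 and 43.5 CPM (-0.02 ± 0.06), and arle-14, that of another cofactor, had 8.63 and 8.94 against 9.81 and 10.6 CPM (0.22 ± 0.09). The heterochromatin protein 1 genes hpl-1 and hpl-2 differed by -0.01 ± 0.10 and -0.08 ± 0.06, and the reader genes lin-61 and cec-3 by -0.01 ± 0.07 and 0.00 ± 0.06. mrg-1, a chromodomain gene that acts on the active chromatin side of anchoring in the intestine, had 59.6 and 61.6 against 60.6 and 61.5 CPM (0.01 ± 0.05).

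The nuclear envelope genes gave no call either. None of the 11 lamina and LINC genes was called, 1 had an unadjusted p under 0.05, and the median was 0.0101, or -0.0542 without cec-4 b. emr-1, the emerin gene, had 44.0 and 46.2 CPM in wild-type and 50.8 and 48.8 in cec-4 (0.14 ± 0.06, adjusted p = 0.897). lem-2 differed by 0.08 ± 0.07, and the SUN and KASH genes unc-84, unc-83 and anc-1 by -0.04 ± 0.07, -0.01 ± 0.06 and 0.08 ± 0.09. Of 26 nuclear pore genes, npp-9 alone had an unadjusted p under 0.05 (0.14 ± 0.06). Of 33 tested genes of nuclear RNAi and small RNA, 0 had one, with the smallest p for eri-5, a gene of small RNA production (0.27 ± 0.12). Of 26 polycomb, DREAM and synMuv genes, mes-3 was higher (0.13 ± 0.06) and mes-4 lower (-0.18 ± 0.08) at that threshold, and neither was called. The histone list had 70 gene IDs, of which 45 had 0 counts in all libraries and 16 were tested. Since 36 of the IDs share a symbol with another and many copies are near-identical, single histone values are uncertain.

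**Figure D5:**
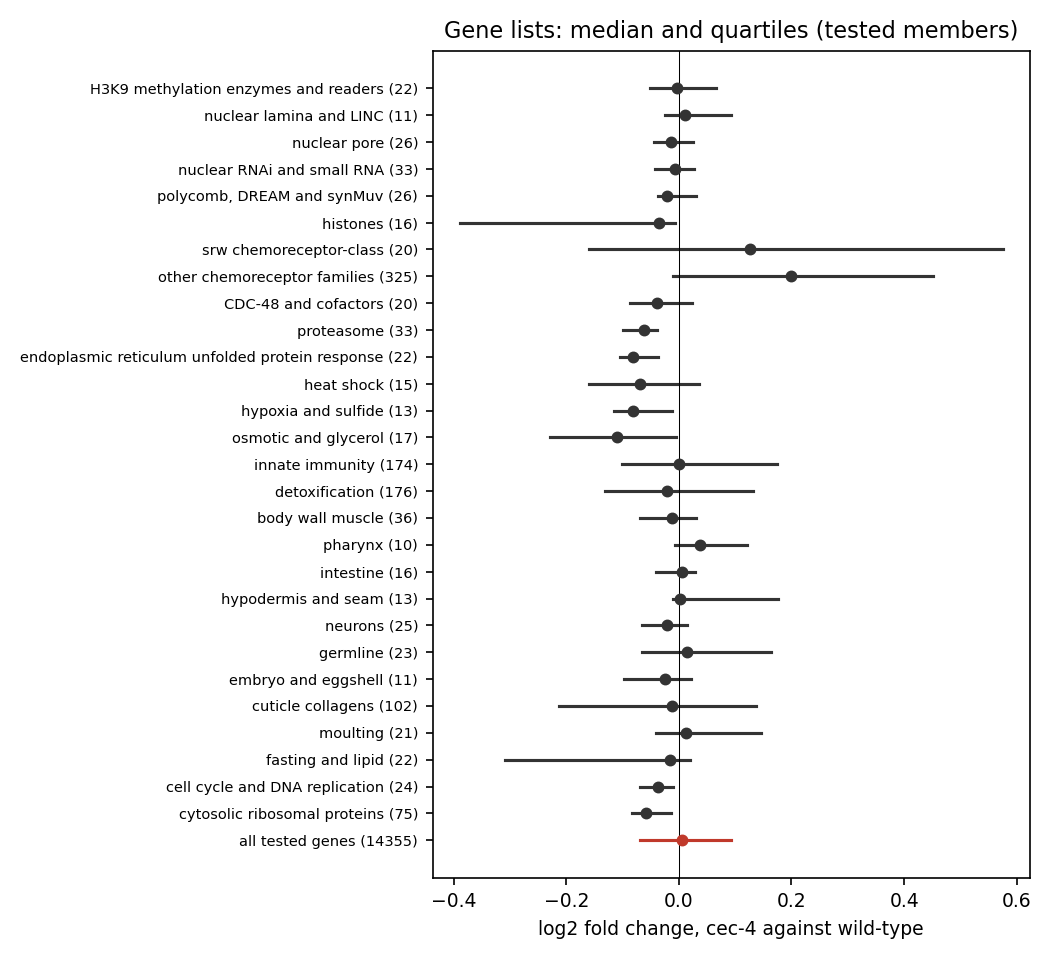
Median (point) and quartiles (line) of the log2 fold change of cec-4 against wild-type over the tested members of each gene list, with the number tested in brackets and all 14355 genes in red. The medians lie between -0.109 and 0.199, and the widest quartiles belong to lists of low counts or to histones and collagens.

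The chemoreceptor families other than srw had the highest median of the lists. These receptors are expressed in few cells each, and 325 of 1194 genes passed the filter. The median was 0.199, with 234 positive members and 0 called. At the unadjusted threshold of 0.05, 19 members were higher and 2 lower, together 6.46% of the list beside 4.88% of all tested genes. The summed level was 630.2 and 627 CPM in wild-type, 639 in cec-4 a and 702 in cec-4 b. The summed level was thus highest in cec-4 b. Without cec-4 b the median was smaller, 0.0459 with 201 of 360 members positive, beside -0.00354 over all genes then tested. The members of smallest p were srsx-25, with 0.251 and 0.248 CPM in wild-type and 0.491 and 0.549 in cec-4 (1.06 ± 0.33), srh-148 with 0.282 and 0.497 against 0.164 and 0.157 (-1.35 ± 0.44), and sri-26 with 0.282 and 0.231 against 0.392 and 0.759 (1.23 ± 0.42).

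A related pattern ran over all genes. By mean level, the median log2 fold change was 0.182 for the 338 tested genes under 0.3 CPM, 0.0358 for genes of 3 to 10 CPM and -0.0334 for the 551 genes of at least 300 CPM. In the double mutant against lamin Y59C the lowest and highest bins had the opposite order, -0.0844 and 0.0815. Between single libraries, genes of at least 100 CPM differed by a median of 0.00461 for cec-4 a against wild-type a and of -0.0639 for cec-4 b against wild-type b. The cytosolic ribosomal protein genes followed the library in the same way. Their median was -0.0584 with 12 of 75 positive, and without cec-4 b it was 0.0398 with 51 positive. They summed to 154348 and 159448 CPM in wild-type, 161895 in cec-4 a and 140525 in cec-4 b. None of the 75 was called.

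The 102 tested cuticle collagens held the most genes at an unadjusted p under 0.05 on the lower side, 16 against 1 on the higher side, together 16.7% of the list beside 4.88% of all genes (2.33% lower and 2.55% higher). The median was -0.0125, with 48 members positive and 54 negative. The largest of these were at low levels, such as col-104 with 2.04 and 1.77 CPM in wild-type and 1.05 and 0.576 in cec-4 (-1.25 ± 0.29). The lean to the lower side moved with the wild-type library used. Without wild-type a the median was 0.0293, with 58 of 108 positive, and without wild-type b it was -0.114, with 40 of 109 positive. Over all genes then tested the medians were 0.00441 and 0.00675. The moulting genes, which act in the same tissue, had a median of 0.0135, or -0.0899 without cec-4 b, with mlt-10 at 3.89 and 4.42 CPM in wild-type and 5.17 and 6.96 in cec-4 (0.54 ± 0.15) and nekl-3 at -0.18 ± 0.08. The detoxification genes had 6 higher and 8 lower of 176 at the unadjusted threshold, together 7.95% beside 4.88% of all genes. Their median was -0.0213, or 0.0434 without wild-type a and -0.0647 without wild-type b. The lowest p among them was that of cyp-33E2, a cytochrome P450 gene (0.29 ± 0.08), and gst-5, a glutathione transferase gene, had 320 and 253 CPM in wild-type and 241 and 220 in cec-4 (-0.31 ± 0.10).

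Stress and immune genes gave no call with edgeR. DESeq2 on the wild-type and cec-4 libraries alone called hsp-16.41 and, from the fasting and lipid list, acs-2. Of 174 genes of innate immunity, 16 passed the unadjusted threshold, 11 upward and 5 downward (9.20%, beside 4.88% of all genes), with a median of -0.000613. That median was 0.0492 without wild-type a and -0.00318 without cec-4 b. Besides irg-5, the 16 genes included ilys-5, a lysozyme gene, with 161 and 188 CPM in wild-type and 251 and 210 in cec-4 (0.40 ± 0.10). The C-type lectin gene clec-80 was another, with 18.2 and 17.9 against 21.6 and 23.1 CPM (0.31 ± 0.08). The small heat shock genes hsp-16.41, with 18.7 and 22.4 against 13.8 and 9.34 CPM, and hsp-16.2, with 23.2 and 28.3 against 19.2 and 14.9 CPM, were lower at the unadjusted threshold (-0.85 ± 0.21 and -0.61 ± 0.21). Of 22 genes of the endoplasmic reticulum stress response, 2 had a positive log2 fold change and the median was -0.0821, and pek-1, a stress kinase gene, had the smallest p (-0.29 ± 0.12). The chaperone gene hsp-4 had 207 and 186 CPM in wild-type and 182 and 167 in cec-4 (-0.17 ± 0.08). The osmotic list had a median of -0.109, or -0.0480 without wild-type a and -0.0471 without cec-4 b, with wnk-1, a kinase gene, at 203 and 190 against 175 and 161 CPM (-0.23 ± 0.06), and the hypoxia list had a median of -0.0812, or -0.0425 without wild-type a, with cysl-1 at -0.21 ± 0.09. In the fasting and lipid list, acs-2, an acyl-CoA synthetase gene, had 12.9 and 8.998 CPM in wild-type and 6.41 and 5.97 in cec-4 (-0.80 ± 0.27).

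No gene of the tissue lists was called. The medians were -0.0117 for body wall muscle, 0.0379 for pharynx, 0.00618 for intestine, 0.00227 for hypodermis and seam, -0.0212 for neurons, 0.0139 for germline and -0.0243 for embryo and eggshell. The hypodermis median was 0.141 without wild-type a and -0.127 without wild-type b, and those of the other tissues lay between -0.119 and 0.0842 when 1 of the 4 libraries was left out. In muscle, the only gene with an unadjusted p under 0.05 was unc-89, which encodes the giant M-line protein, with 746 and 754 CPM in wild-type and 682 and 680 in cec-4 (-0.14 ± 0.06). None of the 25 neuronal genes reached that threshold. In whole larvae, fewer cells of a type and less RNA per cell cannot be told apart. The cell cycle genes had a median of -0.0369 (-0.00544 without cec-4 b) with 0 at the threshold, and mcm-5, a replication helicase gene, had 122 and 122 against 113 and 114 CPM (-0.11 ± 0.07).

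Since H3K9 methylation is dense on the autosome arms, the genes were also split by position, each chromosome being divided into 3 equal lengths, of which the middle one was set against the other two. The 6881 tested genes in the outer parts of the autosomes had a median log2 fold change of 0.000702. Their unadjusted p was under 0.05 for 196 higher and 145 lower genes, together 4.96%. The 5047 genes of the middle parts had a median of 0.0102, with 113 higher and 123 lower, together 4.68%. Both shares were near that over all tested genes, 4.88% (2.55% higher and 2.33% lower). The difference between outer and middle parts was 0.00748 in wild-type a and 0.000899 in wild-type b, each library against the mean of all, and 0.0292 in cec-4 a and -0.0341 in cec-4 b. The cec-4 libraries thus lay on both sides of wild-type. The X chromosome had a median of 0.00553 over 2127 genes.

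Genes without reads in wild-type had few reads in cec-4. There were 78 genes with 0 counts in both wild-type libraries and at least 1 in both cec-4 libraries, and 0 of these had at least 3 counts in both. The highest count among them was 7, in C54C8.4, which had 7 and 2 counts in cec-4, and srh-55 had 2 and 6, vet-6 2 and 4 and srh-75 2 and 3. In the other direction, 123 genes had 0 counts in both cec-4 libraries and at least 1 in both wild-type libraries, and 4 of these had at least 3 in both, such as srt-17 with 4 and 7. The wild-type libraries held more counts in total, 57069281 in wild-type b, so the counts of such genes are not matched in depth. A count of 0 allows up to 3 counts in that library, a limit that covers counting error only.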

How the data were processed

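Total RNA of L1 larvae was read as 50 bp single-end reads from stranded libraries, per the labels' protocols. The deposited table holds raw counts per gene; Bowtie, ce10 and edgeR 3.24.0 are named in the submitters' processing notes, and the counting tool is not given in the sources used here. The deposited log2 table was recomputed from the counts (pseudocount 8; of 163136 values 0 differed by more than 1e-06) and not used further. Positions are those of WBcel235 by gene ID (19870 genes matched, 522 not), with nothing converted.

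Counts were fitted with edgeR 4.0.16 in R 4.3.3 over all 8 libraries, with 1 mean per genotype (filterByExpr removed 6037 genes with 0.0278% of counts; TMM; quasi-likelihood F-test, two-sided; Benjamini-Hochberg over 14355 genes). The common dispersion was 0.00408, with 4 residual and 6.03 prior degrees of freedom. The SE is the log2 fold change divided by the square root of F. Alternatives were DESeq2 1.42.0, limma 3.58.1 (voom), other scalings and filters, the 4 libraries alone, a replicate block and leaving out each library; the steps were tested on simulated data. The position split, the level bins and the list values have no test.

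The genes named were the genotype genes, all calls of edgeR and DESeq2 over the 8 libraries, and 12 rises and 12 falls. These 12 each way were those of smallest p without overlap at a mean of at least 5 CPM. Others were drawn from the 3 members of smallest p per list and the 3 nearest tested genes on each side of called genes. Genes at 0 in 1 genotype were a further source. Not every gene of these last sets is named. Further members of the chromatin, envelope, CDC-48 and srw lists were given for their role. Members and lists were chosen with earlier results of these data known.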

Additional observations from a re-analysis of the deposited data

Results flagged for a closer look

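The effect of the cec-4 deletion differed between normal and mutant lamin for 5 genes by edgeR's interaction test, given here as the log2 fold change under mutant lamin minus that under normal lamin. tlp-1, a transcription factor gene of tail development, had 29.8 and 30.1 CPM in wild-type, 32.01 and 29.7 in cec-4, 81.1 and 79.9 in lamin Y59C and 34.0 and 30.9 in the double mutant (difference -1.35 ± 0.09, adjusted p = 0.000643). The deletion went with a change of 0.04 ± 0.07 in the first pair and of -1.31 ± 0.07 in the second. lys-7, a lysozyme gene, had 175 and 187 CPM in wild-type, 163 and 187 in cec-4, 255 and 244 in lamin Y59C and 86.8 and 105 in the double mutant (difference -1.33 ± 0.13, adjusted p = 0.00983). lsm-5, a gene of the Sm-like RNA-binding complex, had 28.4 and 28.3 CPM in wild-type, 28.1 and 26.1 in cec-4, 78.5 and 76.4 in lamin Y59C and 41.9 and 37.4 in the double mutant (difference -0.90 ± 0.10, adjusted p = 0.0161). These 3 genes differed little between cec-4 and wild-type, where their adjusted p was at least 0.912, and were lower in the double mutant than in lamin Y59C. In the other fits tried, tlp-1 was called in all of them. lys-7 lost its call without lamin Y59C a or wild-type a, and lsm-5 without wild-type a, wild-type b, lamin Y59C a or double mutant b.

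clc-11 and the C-type lectin gene clec-42 were higher in both cec-4 libraries than in wild-type and lower in the double mutant than in lamin Y59C. The difference was -1.11 ± 0.14 for clc-11 and -1.15 ± 0.15 for clec-42 (adjusted p = 0.0476 for each). clec-42 had 243 and 260 CPM in wild-type, 281 and 342 in cec-4, 348 and 293 in lamin Y59C and 188 and 170 in the double mutant, and it was not called between cec-4 and wild-type (0.31 ± 0.11, adjusted p = 0.897). Both lost the call of the difference with the replicate block and with a mean of at least 1 CPM, and clec-42 also with library totals. Leaving out 1 library kept clc-11 in 1 of 8 fits and clec-42 in 2.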

How the results depend on the processing

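For cec-4 against wild-type, 3 genes were called by edgeR in the fit of the 4 libraries alone, with RLE factors, with library totals, without a filter on low counts, with a mean of at least 1 CPM and with the replicate letter as a block, which also gave 3, and by limma-voom (chosen after seeing the data). DESeq2 called 11 genes, and 15 on the 4 libraries alone (chosen after seeing the data). Leaving out 1 library gave 3 to 9 calls, with 9 without wild-type b. cec-4 and srw-85 were called in all 8 of these fits, and ufd-1 in 7. For the deletion under mutant lamin, the 97 calls became 236 with DESeq2, 182 without the filter and 28 with the replicate block, and 6 to 166 without 1 library; without lamin Y59C a there were 8, and without double mutant a or b 6 each. For the difference between the backgrounds, the 5 calls became 73 with DESeq2, 34 without the filter and 3 with a mean of at least 1 CPM, and 1 to 35 without 1 library. The cause was not tested. The labels do not say that a letter marks a shared batch. Deviations of same-lettered libraries correlated at 0.194 between wild-type and cec-4 and at 0.475 between lamin Y59C and the double mutant, but at -0.511 between cec-4 and the double mutant, so the letters were not taken as pairs. Genes under 1 CPM carry few counts, so small differences there were not detectable at this depth.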
